A study of Bos taurus with 8 samples.

Results

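The genes of fatty acid uptake, activation and oxidation were followed in mural granulosa cells (mGC), the cells that line the inner wall of the ovarian follicle, of German Holstein cows under heat stress (HS) and of pair-fed cows (PF) in the cool. All transcripts with a single gene symbol of the families SLC27A, ACSL, CPT, ACAD, HADH, ACOX, FABP, PLIN and ACOT were taken, and where a symbol had more than 1 transcript cluster, the cluster with the highest mean signal over the 8 arrays was kept. This gave 52 genes from 53 matching clusters, out of 20378 clusters with 1 symbol and 26773 clusters on the Bovine Gene 1.0 ST array. The choice used symbols and mean signals only, not the difference between the groups.

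The 4 HS cows were kept at 28°C and 52% relative humidity, a temperature humidity index of 76, and the 4 PF cows at 15°C and 64% relative humidity, an index of 60. The labels give a stay of 96 h in the climate chamber for both groups. The PF cows received feed restricted to the intake seen under heat, so both groups ate a reduced amount and no freely fed group is part of the comparison. All cows were non-pregnant and lactating, received 500 µg of prostaglandin F2α for luteolysis 72 h before slaughter and, 49 h after that, 100 µg of a GnRH analog to trigger the LH surge, and the dominant follicle was taken 23 h after GnRH. The cell layer was scraped from the opened follicle wall without sorting, and 1 array was run per cow, so that each replicate is a cow and the p-values measure the spread between cows.

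Long-chain fatty acids enter a cell with the help of membrane and binding proteins and are trapped inside as acyl-CoA thioesters, which transport proteins and acyl-CoA synthetases make. The carnitine palmitoyltransferases carry the acyl group into the mitochondrion, where rounds of dehydrogenation, hydration, a further dehydrogenation and thiolysis shorten it, while peroxisomes handle very long and branched chains. Acyl groups that are not burned can be freed again by thioesterases or stored in droplets coated by perilipins, and in the cumulus-oocyte complex fatty acid oxidation is known to supply energy around the LH surge.

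Values are log2 signals of the robust multichip average (RMA), and the difference of HS minus PF is a log2 fold change from limma, adjusted for multiple tests over all clusters by Benjamini-Hochberg. Of the 52 genes, 31 (59.6%) had a higher mean and 21 a lower mean in HS than in PF, against 46.0% of all clusters with a higher mean. The median log2 fold change was 0.04 for the 52 genes and -0.02 for all clusters, and the median size regardless of sign was 0.20 and 0.14. An absolute fold change above 1.5 together with an unadjusted p under 0.05, the thresholds of the study, was met by 5 genes (9.62%), against 2.21% of all clusters. SLC27A1, SLC27A3, CPT1A and CPT1B were the 4 higher ones (7.69%, against 1.58% of all clusters), and CPT1C was the only lower one (1.92%, against 0.627%). SLC27A1, SLC27A3 and CPT1C had been named by the study from these same arrays, so their place in this count is not independent evidence. For SLC27A1 the study also reported a significantly higher level in HS by quantitative PCR. An unadjusted p under 0.05 alone was reached by the same 5 genes (9.62%), against 7.20% of all clusters. After adjustment none of the 52 genes stayed under 0.05 by limma, the lowest adjusted p being 0.641, and with 0% of all clusters under 0.05 the same holds for the whole array. By the methods' t-test, 3 of the 52 genes had an unadjusted p under 0.05 and 0 had an adjusted one. The groups did not overlap for 2 genes, SLC27A2 and ACADVL (3.85%, against 4.64% of all clusters), and in both HS lay above PF (against 2.64% of all clusters), so that this share was near the background.

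**Figure D1:**
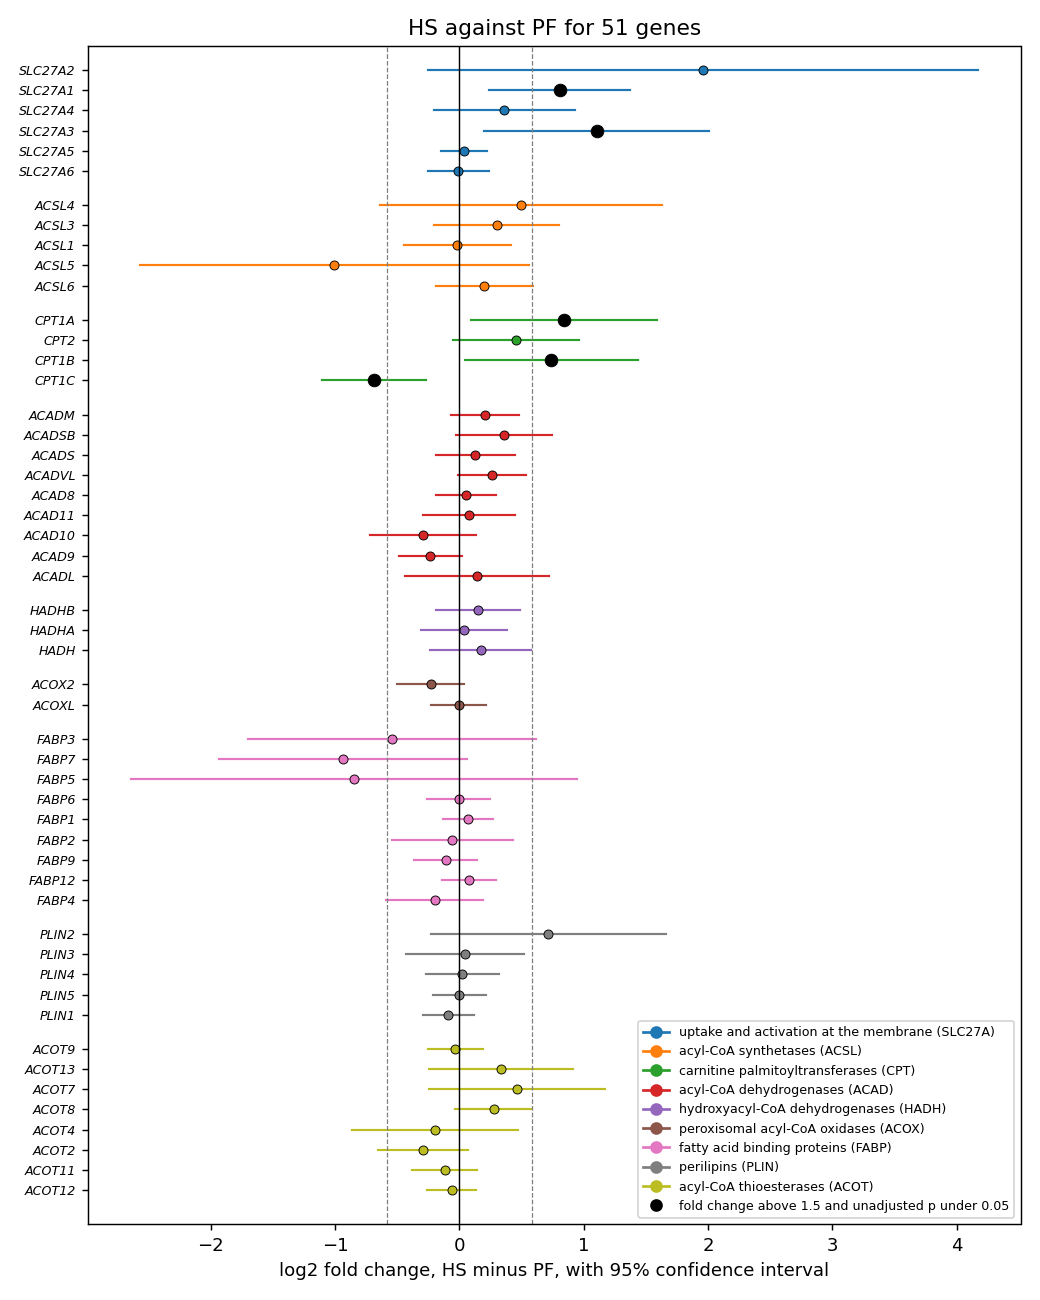
Log2 fold change (HS minus PF, x axis) of 51 genes by family, with the 95% confidence interval of limma as a line; dashed lines mark a fold change of 1.5 in either direction and black points the 5 genes past that fold with an unadjusted p under 0.05. The black points of SLC27A1, SLC27A3, CPT1A and CPT1B lie to the right and that of CPT1C to the left, most other genes lie near 0, and the widest intervals belong to SLC27A2, FABP5 and ACSL5.

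The arrays themselves bear on these values. Array medians lay between 5.27 and 5.37 in HS and between 5.33 and 5.44 in PF. PF replicate 3 stood apart: the mean over 15 transcripts known to be induced by the LH surge was 5.53 on this array, against 7.44 to 8.45 on the other 7, and PTGS2, the prostaglandin synthase of the ovulatory response, had a signal of 3.46 there and of 10.03 to 11.02 elsewhere. Not every transcript of the list was low there: ADAMTS1 measured 8.84, against 7.92 to 9.52 elsewhere, and RUNX1 7.48, against 6.73 to 8.69. The study reported more progesterone than estradiol in all follicles, which it took as a sign of the stage after the LH surge. It gave PTGS2 by group averages. Whether the LH surge took place in the cow of PF replicate 3 as in the others was not tested here, and each difference below includes this cow unless stated. The mean over 16 granulosa transcripts lay between 8.42 and 9.10 in HS and between 8.04 and 8.48 in PF, and FOXL2, a defining granulosa factor, measured 7.54 to 8.10 in HS and 6.68 to 8.25 in PF. The highest of these means, 9.10, was that of HS replicate 4. There CYP19A1 measured 10.65, against 4.42 to 6.92 elsewhere, and INHBA 10.89, against 7.63 to 9.97. The state of the follicle in HS replicate 4 was not tested. Transcripts of other cells of the follicle wall were also present. A lower mean in HS was found for 13 of 13 fibroblast and smooth muscle, 10 of 10 endothelial, 9 of 9 measured myeloid and 10 of 10 lymphocyte markers. Of the 5 theca endocrine markers, however, 3 had a higher mean in HS, and PTCH1 met the thresholds (log2 fold change 0.95). Over all clusters, 46.0% had a higher mean in HS. The theca endocrine mean lay between 7.55 and 8.28 in HS and between 6.77 and 8.32 in PF. The endothelial mean lay between 5.33 and 7.86 in HS and between 5.51 and 8.51 in PF, and the myeloid mean between 5.78 and 6.88 in HS and between 5.86 and 8.61 in PF. Of the 10 adipocyte markers, 4 had a higher and 6 a lower mean in HS, with log2 fold changes between -0.83 and 0.51. Their mean lay between 4.46 and 4.59 in HS and between 4.52 and 4.66 in PF, and 8 had a mean signal under 5. Among them ADIPOQ, the adipocyte hormone, measured 3.67 to 4.01 in HS and 3.77 to 4.01 in PF. Since whole scraped layers were measured, fewer cells of a type and less RNA per cell cannot be told apart in any of the differences below.

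PF replicate 3 gave the lowest signal for 17 of the 52 genes (32.7%, against 22.8% of all clusters) and the highest for 7 (13.5%, against 26.1%). PF cows also varied more among themselves. The standard deviation (SD) was larger in PF than in HS for 41 of the 52 genes (78.8%, against 75.5% of all clusters), with a median SD of 0.15 in HS and 0.31 in PF. The part of PF replicate 3 and of the cell mixture in the differences of single genes was not tested. Beside the single genes below, the fits without single arrays are named where a call changed, with their values for some genes.

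**Figure D2:**
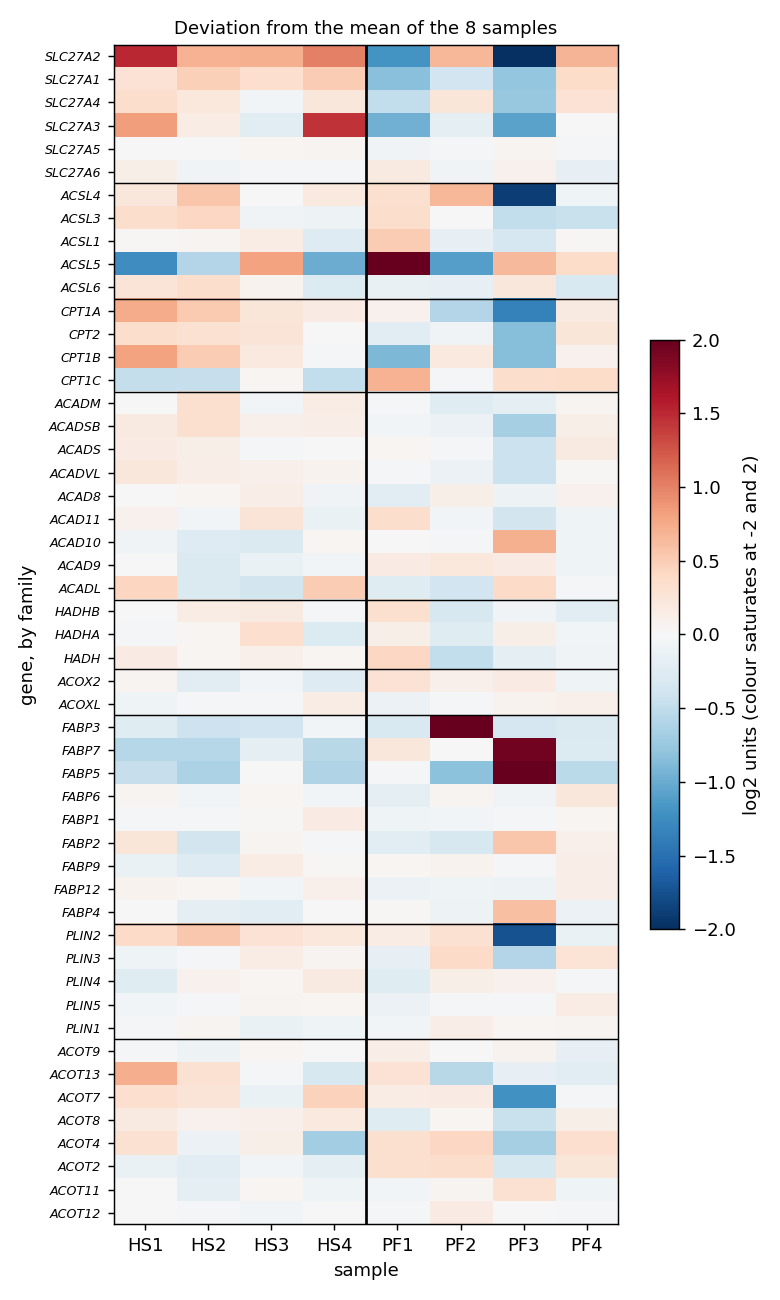
Deviation of each of 51 genes (rows, by family) from its own mean over the 8 samples (columns, HS left of the line and PF right of it), in log2 units from -2 (blue) to 2 (red). The deepest single cells lie in PF: SLC27A2, ACSL4 and PLIN2 are low and FABP5 and FABP7 high in PF replicate 3, FABP3 is high in PF replicate 2 and ACSL5 in PF replicate 1.

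The SLC27A genes encode the fatty acid transport proteins, membrane proteins that help long-chain fatty acids across the membrane and activate them with coenzyme A. Of the 6 genes, 5 had a higher mean in HS (median log2 fold change 0.58), against 46.0% of all clusters. The thresholds were met by 2, both higher and both named by the study from these arrays, against 1.58% of all clusters. SLC27A1, the insulin-responsive transporter of muscle and fat, measured 7.47, 7.66, 7.51 and 7.69 in HS replicates 1 to 4, against 6.35, 6.80, 6.41 and 7.54 in PF replicates 1 to 4. HS cows lay close together, and PF replicate 4 alone reached into their range. The log2 fold change was 0.81 (SE 0.25, n = 4 each, 1.75-fold, limma adjusted p = 0.683), with an exact two-sided permutation p = 0.086, where 0.029 is the smallest that 70 assignments of 4 against 4 allow. SLC27A1 met the thresholds whichever of the 8 arrays was left out, and no longer did when PF replicates 1 and 3 were left out together, where the log2 fold change was 0.41.

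SLC27A3, an acyl-CoA synthetase of this family that is less well known as a transporter, had signals of 6.87, 6.18, 5.80 and 7.48 in HS and of 5.07, 5.84, 4.96 and 6.03 in PF. HS replicate 4 was the highest, and HS replicate 3 lay below PF replicates 2 and 4, so the groups overlapped. Its log2 fold change of 1.11 (SE 0.40, n = 4 each, 2.15-fold, limma adjusted p = 0.683; exact permutation p = 0.086) met the thresholds in 4 of the 8 fits with 1 array left out, and not without HS replicate 1, without HS replicate 4, without PF replicate 1 or without PF replicate 3. SLC27A3 did not meet them by the methods' t-test.

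SLC27A2, the very long-chain acyl-CoA synthetase known from liver and kidney peroxisomes, gave 9.38, 8.57, 8.58 and 8.89 in HS, against 6.68, 8.53, 3.80 and 8.56 in PF. All HS cows lay above all PF cows, but PF replicates 2 and 4 were next to the lowest HS cow, while PF replicates 1 and 3 lay far below. On average the difference was 1.96 on the log2 scale (SE 0.97, n = 4 each, 3.89-fold, exact permutation p = 0.029, limma adjusted p = 0.683) and did not meet the thresholds. That permutation p follows from the lack of overlap alone. The thresholds were met in 2 of the 8 fits with 1 array left out, without PF replicate 2 (2.51) and without PF replicate 4 (2.52). The log2 fold change came to 0.93 without PF replicate 3 and to 0.31 without PF replicates 1 and 3. SLC27A4, a widely expressed transporter, showed the same low pair of PF cows, with 6.59, 6.44, 6.18 and 6.45 in HS, against 5.74, 6.48, 5.47 and 6.53 in PF (log2 fold change 0.36, 95% confidence interval -0.21 to 0.93), and the difference was -0.09 without that pair. SLC27A5, the bile acid and very long-chain CoA ligase of liver, averaged 5.41 ± 0.03 in HS and 5.37 ± 0.05 in PF, and SLC27A6, a transporter known from heart, 2.66 ± 0.09 in HS and 2.67 ± 0.15 in PF (SD, n = 4 each).

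**Figure D3:**
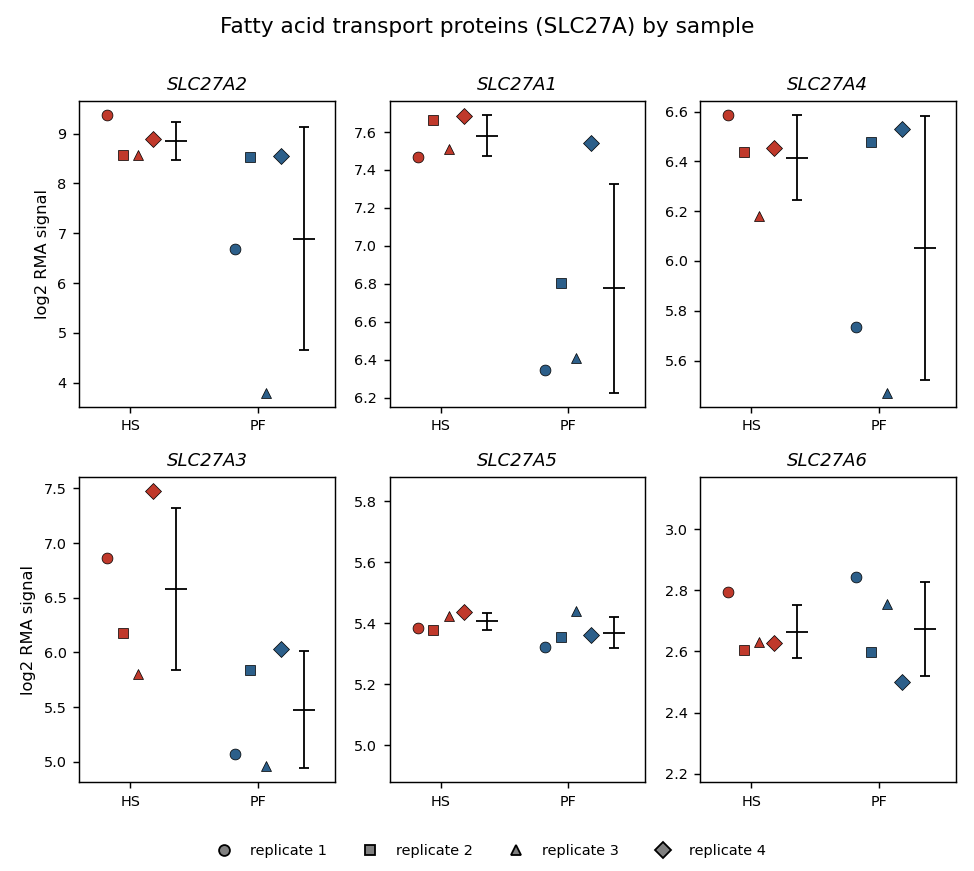
Log2 RMA signal (y axis, a separate range for each gene) of the 6 fatty acid transport protein genes in the 4 HS samples (red, left) and the 4 PF samples (blue, right), with mean and SD beside each group; shapes give the replicate number, which names a cow and does not pair cows. For SLC27A2, SLC27A1, SLC27A4 and SLC27A3 the 2 lowest points are PF replicates 1 and 3, and for SLC27A5 and SLC27A6 the group means lie within 0.04 of each other.

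Inside the cell, the ACSL genes encode the long-chain acyl-CoA synthetases, which activate fatty acids at the endoplasmic reticulum, the mitochondrion and other membranes. None of the 5 met the thresholds, and 3 had a higher mean in HS. ACSL4, which prefers arachidonate, the precursor of prostaglandins, measured 9.14, 9.46, 8.92 and 9.10 in HS, against 9.23, 9.57, 7.03 and 8.82 in PF. Apart from the low PF replicate 3 the groups covered the same range: the log2 fold change was 0.49 (SE 0.50, limma adjusted p = 0.787) with all cows and -0.05 without PF replicate 3.

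ACSL5, a synthetase of the mitochondrion and endoplasmic reticulum known from gut and liver, varied most within the family, with 4.73, 5.39, 6.78 and 4.97 in HS, against 8.07, 4.87, 6.61 and 6.33 in PF. HS replicate 3 and PF replicates 1, 3 and 4 were high and the other 4 cows low, and the same arrays carried the high endothelial marker means, 7.86 in HS replicate 3 and 8.51, 7.34 and 7.42 in PF replicates 1, 3 and 4, against 5.33 to 6.25 on the rest. Fibroblast and smooth muscle, myeloid and lymphocyte marker means were also highest on these arrays. They were 8.73 to 9.71, 6.33 to 8.61 and 5.11 to 5.88, against 7.02 to 7.95, 5.78 to 5.96 and 4.54 to 4.81 on the rest. For ACSL5 the log2 fold change was -1.01 (SE 0.68, 95% confidence interval -2.57 to 0.56), against -0.47 without PF replicate 1 and -1.54 without PF replicate 2, where the thresholds were met, and the part of these cells in it was not tested. ACSL3, a lipid droplet enzyme, averaged 7.37 ± 0.27 in HS and 7.08 ± 0.40 in PF, ACSL1, the main synthetase of fat, liver and heart, 6.83 ± 0.18 in HS and 6.85 ± 0.36 in PF, and ACSL6, known from brain, 5.31 ± 0.28 in HS and 5.10 ± 0.23 in PF.

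The carnitine palmitoyltransferases control entry into the mitochondrion, CPT1 at the outer membrane being the regulated step that malonyl-CoA inhibits and CPT2 the partner at the inner membrane. In this family 3 of 4 genes met the thresholds, 2 of them higher and 1 lower in HS, against 1.58% and 0.627% of all clusters. By the methods' t-test, with array weights or without PF replicate 3, only CPT1C of these still met them. CPT1C had been named by the study from the same arrays. CPT1A, the liver-type enzyme found in most tissues, measured 9.86, 9.65, 9.37 and 9.30 in HS, against 9.21, 8.55, 7.78 and 9.30 in PF. Only PF replicate 4 reached the range of the HS cows, and PF replicate 3 was the lowest. The log2 fold change was 0.84 (SE 0.33, n = 4 each, 1.79-fold, limma adjusted p = 0.683), with an exact permutation p = 0.057. CPT1A met the thresholds in 4 of the 8 fits with 1 array left out, and not without HS replicate 1, HS replicate 2, PF replicate 2 or PF replicate 3. Without PF replicate 3 its log2 fold change was 0.53, and without PF replicates 1 and 3 together it was 0.62 and met the thresholds again. By the methods' t-test neither CPT1A nor CPT1B met them.

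CPT1B, the muscle-type enzyme, gave 8.07, 7.79, 7.46 and 7.25 in HS, against 6.37, 7.46, 6.41 and 7.37 in PF. PF replicates 1 and 3 were a log2 unit below the others, while PF replicates 2 and 4 lay among the HS cows. Its log2 fold change of 0.74 (SE 0.30, 1.67-fold, limma adjusted p = 0.683; exact permutation p = 0.114) met the thresholds in 3 of the 8 fits with 1 array left out, those without HS replicate 4, PF replicate 2 or PF replicate 4, and was 0.23 without PF replicates 1 and 3. CPT2 followed a similar order, with 8.59, 8.55, 8.49 and 8.23 in HS and 8.02, 8.17, 7.38 and 8.47 in PF, and its log2 fold change of 0.45 (SE 0.22, 1.37-fold, exact permutation p = 0.057) was below the fold threshold. For CPT2 the value was 0.24 without PF replicate 3 and 0.61 without PF replicate 4, where both thresholds were met.

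CPT1C, a family member known from neurons with little transferase activity, went the other way. Its signals were 5.004, 5.02, 5.53 and 4.99 in HS, against 6.17, 5.46, 5.84 and 5.84 in PF. HS replicate 3 was the only HS cow above a PF cow, and it passed PF replicate 2 only. As for ACSL5, the highest signals came from HS replicate 3 and PF replicates 1, 3 and 4. Those arrays also had the highest endothelial, fibroblast and smooth muscle, myeloid and lymphocyte marker means. The part of these cells in the values of CPT1C was not tested. The log2 fold change was -0.69 (SE 0.18, n = 4 each, 0.62 of the PF level, limma adjusted p = 0.641, exact permutation p = 0.057), and the thresholds were met in 7 of the 8 fits with 1 array left out, the exception being PF replicate 1, without which the value was -0.57. A test of whether the 3 CPT1 genes differ from each other in their response was not made.

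**Figure D4:**
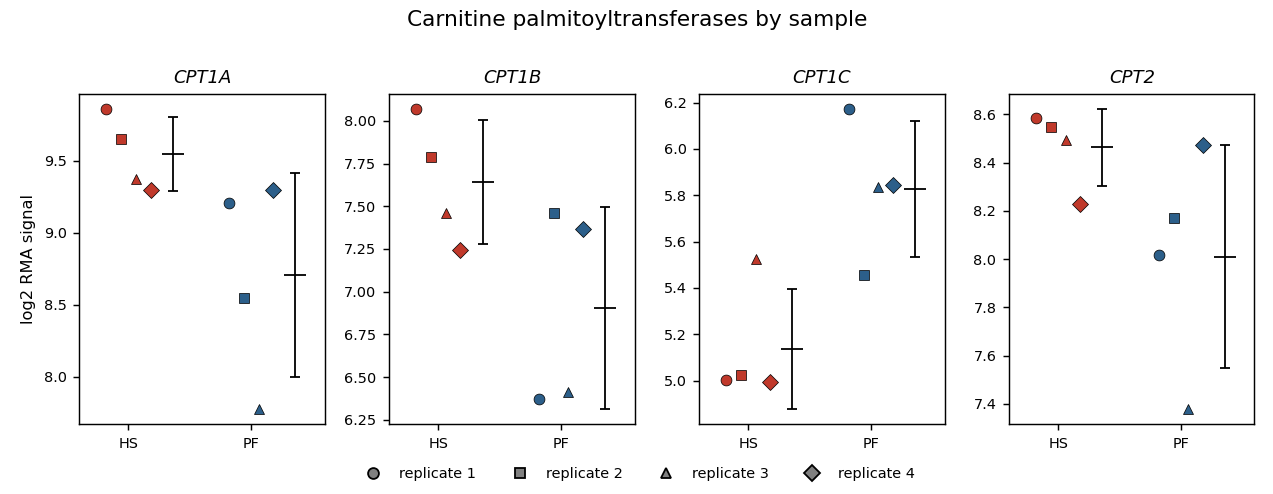
Log2 RMA signal (y axis, a separate range for each gene) of the 4 carnitine palmitoyltransferase genes in the 4 HS samples (red, left) and the 4 PF samples (blue, right), with mean and SD beside each group and replicate numbers as shapes. HS sits high for CPT1A, CPT1B and CPT2, where PF replicate 3 or 1 is lowest, and low for CPT1C, where PF replicate 1 is highest at 6.17.

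Within the mitochondrion, the acyl-CoA dehydrogenases (ACAD) open each round of oxidation, each for its own chain length or for branched acyl groups. Of the 9 genes, 7 had a higher mean in HS, none met the thresholds and the log2 fold changes ran between -0.29 and 0.36. ACADVL, the very long-chain enzyme, encoded on the plus strand of chromosome 19 between 27568181 and 27573378 (assembly UMD3.1, transcript span given with the deposited table), measured 7.63, 7.54, 7.49 and 7.47 in HS, against 7.38, 7.29, 6.97 and 7.42 in PF. Every HS cow lay above every PF cow, though HS replicate 4 and PF replicate 4 were only a small step apart. With a log2 fold change of 0.26 (SE 0.12, 1.2-fold, limma adjusted p = 0.683), the exact permutation p was 0.029, which the lack of overlap fixes. The log2 fold change was 0.17 when PF replicate 3 was left out.

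ACADM, the medium-chain enzyme on the minus strand of chromosome 3 (69344157 to 69382504, UMD3.1), showed 9.97, 10.29, 9.92 and 10.12 in HS and 9.95, 9.73, 9.78 and 10.02 in PF, with overlapping groups and a log2 fold change of 0.21 (95% confidence interval -0.07 to 0.48). ACADSB, for short branched chains, averaged 8.97 ± 0.10 in HS and 8.61 ± 0.34 in PF, and ACADS, for short chains, 7.70 ± 0.09 in HS and 7.58 ± 0.26 in PF. ACAD9, also an assembly factor of respiratory complex I, was the only dehydrogenase gene besides ACAD10 with a lower mean, 5.87 ± 0.13 in HS and 6.10 ± 0.14 in PF (log2 fold change -0.23, limma adjusted p = 0.683). ACAD10 measured 6.74 in PF replicate 3 and 5.74 to 6.06 on the other 7 arrays. The remaining 3, ACAD8, ACAD11 and ACADL, the last a long-chain enzyme, had log2 fold changes between 0.05 and 0.14.

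The later steps of the mitochondrial spiral showed small differences. HADHA and HADHB encode the α and β subunits of the trifunctional protein, which completes the round for long chains, and HADH the dehydrogenase for shorter ones. HADHB measured 9.10, 9.24, 9.27 and 9.07 in HS, against 9.42, 8.77, 9.03 and 8.88 in PF. PF replicate 1 was the highest and PF replicate 2 the lowest of all cows, so the HS cows lay inside the PF range, with a log2 fold change of 0.15 (95% confidence interval -0.19 to 0.48). HADHA averaged 8.84 ± 0.25 in HS and 8.81 ± 0.17 in PF, and HADH 8.27 ± 0.06 in HS and 8.10 ± 0.37 in PF. The HADHB and HADHA transcripts stand head to head on chromosome 11 (HADHB on the minus strand from 73215424 to 73246167, HADHA on the plus strand from 73246485 to 73288803, UMD3.1), with 317 bases between them.

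Of the peroxisomal oxidases, ACOX2, for branched chains and bile acid intermediates, averaged 4.99 ± 0.14 in HS and 5.22 ± 0.16 in PF, and ACOXL 4.06 ± 0.10 in each group.

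The fatty acid binding proteins (FABP) carry fatty acids through the cytosol. Of the 9 genes, 7 had a lower mean in HS and none met the thresholds, and the mean signal over the 8 arrays reached 5 for FABP3 alone. FABP3, the heart-type protein on the plus strand of chromosome 2 (122723225 to 122783830, UMD3.1), measured 5.58, 5.40, 5.44 and 5.76 in HS, against 5.51, 7.84, 5.47 and 5.52 in PF. Only PF replicate 2 stood out, and the log2 fold change of -0.54 (SE 0.51) became 0.04 without it. FABP7, the brain-type protein, had signals of 4.22, 4.21, 4.61 and 4.22 in HS and of 5.004, 4.79, 6.71 and 4.51 in PF, and FABP5, the epidermal type that macrophages also carry, 3.76, 3.59, 4.22 and 3.61 in HS and 4.18, 3.40, 7.33 and 3.68 in PF. Both were highest in PF replicate 3, the array with the highest myeloid marker mean, 8.61 against 5.78 to 7.27 on the other 7. The lymphocyte marker mean was also highest there, 5.88 against 4.54 to 5.43, and the part of these cells in the values was not tested. For FABP7 the log2 fold change was -0.94 (SE 0.44, limma adjusted p = 0.683, exact permutation p = 0.057) and -0.45 without PF replicate 3, while without PF replicate 4 it was -1.19 and met the thresholds. The value of FABP5 was -0.85 (SE 0.78), and 0.05 without PF replicate 3. FABP4, the adipocyte type, averaged 2.08 ± 0.12 in HS and 2.28 ± 0.34 in PF, also with its highest value, 2.78, in PF replicate 3. FABP1, FABP2, FABP6, FABP9 and FABP12 had log2 fold changes between -0.11 and 0.08. In the RefSeq gene order FABP9, FABP4 and FABP12 are direct neighbours, and FABP5 is 1 protein-coding gene away from FABP9.

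Perilipins coat lipid droplets and govern access of lipases to the stored fat. PLIN2, the perilipin of most tissues other than fat, encoded on the plus strand of chromosome 8 (25129168 to 25137851, UMD3.1), measured 10.64, 10.79, 10.55 and 10.47 in HS, against 10.41, 10.56, 8.51 and 10.12 in PF. PF replicate 3 was far below the rest, PF replicates 1 and 4 lay just below the HS cows and PF replicate 2 among them. The log2 fold change was 0.72 (SE 0.41, 1.64-fold, limma adjusted p = 0.695; exact permutation p = 0.086), and 0.25 without PF replicate 3. PLIN3 averaged 8.61 ± 0.11 in HS and 8.57 ± 0.44 in PF. PLIN1, the adipocyte perilipin, PLIN4 and PLIN5, the perilipin of oxidative tissues, had log2 fold changes between -0.09 and 0.02.

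Acyl-CoA thioesterases (ACOT) split acyl-CoA back into free acid and coenzyme A. None of the 8 genes met the thresholds, 3 having a higher and 5 a lower mean in HS. ACOT9, a mitochondrial thioesterase, gave 7.31, 7.23, 7.37 and 7.34 in HS and 7.47, 7.34, 7.40 and 7.17 in PF, with the HS cows inside the PF range and a log2 fold change of -0.03 (95% confidence interval -0.26 to 0.19). ACOT7, the cytosolic long-chain enzyme known from brain, measured 7.24, 7.16, 6.77 and 7.37 in HS, against 7.05, 7.07, 5.69 and 6.87 in PF, and its log2 fold change of 0.46 (SE 0.31) was 0.14 without PF replicate 3. ACOT13 averaged 7.17 ± 0.45 in HS and 6.83 ± 0.35 in PF, and ACOT8, of the peroxisome, 6.38 ± 0.05 in HS and 6.10 ± 0.26 in PF. ACOT2 and ACOT4, which are neighbours in the RefSeq gene order and closely related in sequence, were both lowest within PF in replicate 3 (4.48 for ACOT2 and 4.87 for ACOT4). ACOT2 averaged 4.66 ± 0.07 in HS and 4.95 ± 0.32 in PF, and ACOT4 5.43 ± 0.43 in HS and 5.63 ± 0.51 in PF. The probes of such relatives may share targets, and the accession behind the ACOT2 cluster is listed by RefSeq under the symbol LOC785383. The other ACOT2 cluster gave a log2 fold change of -0.22, against -0.30 for the one used. ACOT11 and ACOT12 differed by -0.12 and -0.06.

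Of 87 further genes of the pathway outside these families, 84 were measured. A higher mean in HS was found for 49 and a lower one for 35, with a median log2 fold change of 0.06. The thresholds were met by 2 of the 84 genes, both higher, and by 0 that were lower, against 1.58% and 0.627% of all clusters. ACSM1, a mitochondrial medium-chain acyl-CoA synthetase, measured 6.92, 6.20, 5.64 and 5.58 in HS, against 4.96, 5.40, 4.29 and 5.76 in PF. PF replicate 4 reached into the HS range and PF replicate 3 was the lowest, and the log2 fold change was 0.98 (SE 0.38, limma adjusted p = 0.683; exact permutation p = 0.086). ACSM1 met the thresholds in 4 of the 8 fits with 1 array left out, those without HS replicate 3, HS replicate 4, PF replicate 2 or PF replicate 4.

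SLC22A5, the carnitine transporter OCTN2 that supplies the carnitine used by CPT1 and CPT2, gave 7.70, 7.12, 7.55 and 7.32 in HS, against 6.77, 5.82, 6.11 and 7.53 in PF. As for SLC27A1 and CPT1A, PF replicate 4 was the only PF cow within the HS range. Its log2 fold change was 0.87 (SE 0.35, limma adjusted p = 0.683; exact permutation p = 0.086), and the thresholds were met in 3 of the 8 fits with 1 array left out, those without HS replicate 2, PF replicate 1 or PF replicate 4.

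By step of the pathway, 11 of 16 further enzymes of mitochondrial oxidation had a higher mean in HS (median log2 fold change 0.12), and so had 9 of 17 peroxisomal genes (median 0.04), 9 of 13 genes of uptake, carnitine supply and acyl-CoA binding (median 0.11), 7 of 16 genes of lipolysis and the lipid droplet (median -0.04) and 13 of 22 regulators (median 0.02). Chosen after their values were seen, 5 of these genes had all HS cows above all PF cows and 3 had them below (8 of 84 without overlap, against 4.64% of all clusters). PPARA, the nuclear receptor that drives transcription of fatty acid oxidation genes, measured 7.19, 7.18, 7.19 and 7.42 in HS and 6.85, 6.60, 6.44 and 6.84 in PF. A gap of 0.33 separated the lowest HS cow from the highest PF cow, and the log2 fold change of 0.56 (SE 0.12, 1.48-fold, limma adjusted p = 0.641) was just under the fold threshold. PPARA met the thresholds without PF replicate 1 (0.62), without PF replicate 4 (0.61) and with array medians subtracted (0.62), and its log2 fold change was 0.48 without PF replicate 3. ETFDH, which passes electrons from the acyl-CoA dehydrogenases to the respiratory chain, measured 7.65, 7.55, 7.40 and 7.40 in HS and 7.21, 7.19, 6.90 and 7.25 in PF. HSD17B4, the peroxisomal bifunctional enzyme, averaged 9.48 ± 0.10 in HS and 9.15 ± 0.18 in PF.

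The other two were ACACA, the carboxylase that makes malonyl-CoA, the inhibitor of CPT1, and CAV1, the caveolar protein. ACACA averaged 6.88 ± 0.11 in HS and 6.48 ± 0.26 in PF. For ACACB, the related carboxylase, the groups overlapped and the mean was lower in HS, 4.24 ± 0.06 against 4.36 ± 0.14 in PF. CAV1, whose signal was lowest in PF replicate 3 (8.02), averaged 10.97 ± 0.16 in HS and 9.92 ± 1.28 in PF. The log2 fold change of CAV1 was 1.05, and 0.42 without PF replicate 3. The reverse order, with all HS cows below all PF cows, was seen for ABHD5, the coactivator of adipose triglyceride lipase (5.41 ± 0.09 in HS and 5.74 ± 0.25 in PF), CIDEA, a droplet protein (4.43 ± 0.07 in HS and 4.70 ± 0.12 in PF), and ACSM5 (3.83 ± 0.02 in HS and 3.97 ± 0.10 in PF). The mean signal over all arrays was under 5 for CIDEA (4.56) and ACSM5 (3.90). For each of the 8 genes without overlap the limma adjusted p was at least 0.641. Their exact permutation p was 0.029, the smallest possible, which the lack of overlap fixes, so it adds no evidence of its own.

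**Figure D5:**
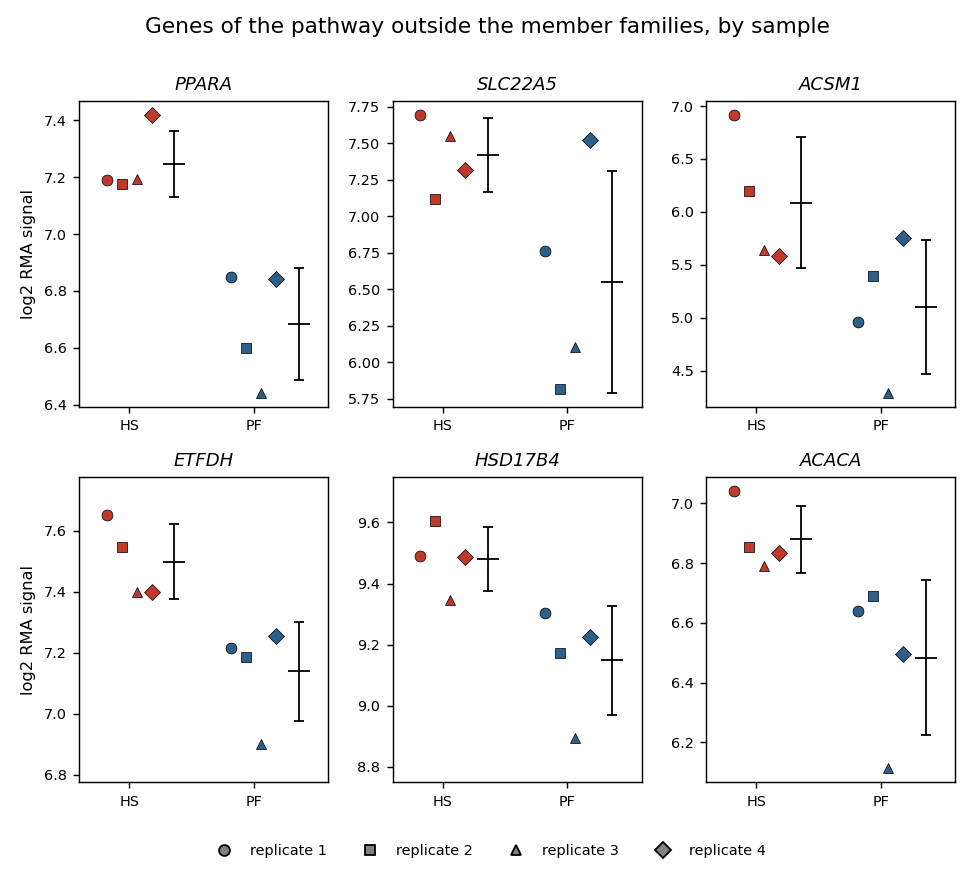
Log2 RMA signal (y axis, a separate range for each gene) of 6 pathway genes outside the member families in the 4 HS samples (red, left) and the 4 PF samples (blue, right), with mean and SD beside each group and replicate numbers as shapes. PPARA, ETFDH, HSD17B4 and ACACA have no overlap between the groups, while for SLC22A5 and ACSM1 PF replicate 4 lies among the HS samples.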

How the data were processed

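The authors ran 8 arrays, 1 per cow, through RMA in the Affymetrix Expression Console at its defaults, which correct the background, make the arrays share one distribution by quantiles and summarize the probes of each transcript cluster. The submitters' processing notes also name the Transcriptome Analysis Console 3.0. The deposited values are log2 signals and lie between 0.89 and 12.5. The annotated table and the series table held the same values. The precision is limited by 4 cows per group, and weak signals were not filtered out. Columns of samples outside the series numbered 0.

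The fit took in all 26773 clusters (limma 3.58.1 under R 4.3.3, functions lmFit and eBayes), HS against PF as unpaired groups, with Benjamini-Hochberg adjustment over all clusters, and the procedure was tested on simulated data. The study's thresholds (fold change above 1.5, unadjusted p under 0.05) were applied to this fit. The methods' t-test is an equal-variance t-test on the deposited log2 values, run in place of the study's one-way analysis of variance. It did not return the study's list exactly, since SLC27A3 is in that list and missed the p threshold here. Single genes were also tested by exact permutation (two-sided, 70 assignments). Values in all samples are given for genes that met the thresholds or did not overlap, for the gene of each family with the highest mean signal, and for SLC27A1, SLC27A3 and CPT1C. Of the further pathway genes, those that met the thresholds, at most 4 per list, are named. Where values of other genes are given, they were chosen after their values were seen. The genes and lists were chosen with earlier results of these data known. SLC22A4, TMLHE and PPARGC1B of the pathway lists and MRC1 of the myeloid list could not be matched to a cluster. All 52 symbols were found in the RefSeq gene table, 32 of them by accession, and UMD3.1 coordinates were read from the annotation of the deposited table for 15 genes.

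Alternatives were the methods' t-test, also with Tukey biweight averages, an intensity trend in eBayes, weighted arrays, only clusters with a mean log2 of 5 or more, array medians subtracted, a further quantile normalization, the series table, the mean of all clusters of a symbol, the replicate number as a block, and each array left out in turn. Leaving out PF replicates 1 and 3 together was chosen after seeing the data. Some single genes that these rules take in are counted in the totals but not reported here, nor drawn.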

Additional observations from a re-analysis of the deposited data

Results flagged for a closer look

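In 10 of 104 groups of 4 cows (each of the 52 genes in HS and in PF), 1 cow lay so far from the other 3 that its gap to them exceeded Dixon's 95% critical value, which chance alone does in about 1 in 20 groups. The groups all come from the same 8 cows and are not independent, and the same share over all clusters is not given. The count therefore does not show an excess in these genes. In HS, replicate 1 was high for SLC27A6 (2.79, others 2.61 to 2.63), and replicate 3 was high for CPT1C (5.53, others 4.99 to 5.02) and for FABP7 (4.61, others 4.21 to 4.22). In PF, replicate 3 was high for ACAD10 (6.74, others 5.94 to 6.03) and low for ACOT7 (5.69, others 6.87 to 7.07), ACOT4 (4.87, others 5.85 to 5.94) and ACOT2 (4.48, others 5.04 to 5.16). PF replicate 2 was high for FABP3 (7.84, others 5.47 to 5.52) and for ACOT12 (3.46, others 3.27 to 3.30), and PF replicate 4 was high for FABP12 (2.46, others 2.21 to 2.25).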

How the results depend on the processing

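The median log2 fold change of the 52 genes moved by less than the spread between arrays under every alternative run. That spread was 0.134, the SD of the median of these genes per array in the group where it was larger. It exceeded the median log2 fold change itself, 0.04, so this does not show that its sign or size held. The count of genes meeting the thresholds (5, of which 4 higher and 1 lower) was 2 by the methods' t-test and with biweight averages (1 higher in each; SLC27A3, CPT1A and CPT1B lost), 1 with array weights (0 higher), and 1 without PF replicates 1 and 3 (1 higher, 0 lower), where 1.33%, 1.31%, 2.52% and 2.53% of all clusters met them. Leaving out single arrays gave 2 to 8 genes (1 to 6 higher, 0 to 2 lower), 2 each without HS replicate 1, PF replicate 1 or PF replicate 3 (1.24%, 1.43% and 3.39% of all clusters) and 8 without PF replicate 4 (3.39%). Genes without overlap (2) numbered 7 with array medians subtracted (4.74% of all clusters), 1 after a further quantile normalization (4.38%), 9 without PF replicates 1 and 3 (22.0%), and 2 to 12 without single arrays (5.91% to 10.8%), with 12 without PF replicate 4 (8.15%). The 2 further pathway genes became 0 by the t-test, with biweight averages, with array weights and without PF replicates 1 and 3, 5 with array medians subtracted (all higher), and 0 to 7 without single arrays. The 7, found without PF replicate 2, went both ways. LPL, MGLL and PDK4 were lower in HS, and ACSM1, PNPLA2, HILPDA and CIDEC were higher. The share of all clusters is not given for the fits with array medians subtracted or without PF replicate 2. With the replicate block 5 genes met the thresholds, 4 of them shared, CPT1B being lost and FABP7 gained (2 lower). Deviations of cows with the same number correlated between -0.27 and 0.21, so the numbers were not taken as pairs. Among the single genes reported, the direction turned for ACOT9 (0.052 with weights, 0.023 with medians subtracted, 0.056 without PF replicates 1 and 3, -0.092 to 0.0069 without single arrays), ACSL4 (-0.079 with biweight averages, -0.043 without PF replicates 1 and 3, -0.052 to 0.80), FABP3 (0.011 with biweight averages, -0.75 to 0.043), FABP5 (0.26 without PF replicates 1 and 3, -1.27 to 0.045) and SLC27A4 (-0.088 without PF replicates 1 and 3), and the cause was not tested.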

Other observations

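Some genes that handle fatty acids outside the named families varied widely between cows without meeting the thresholds on all 8 arrays, and their values were chosen after they were seen. CD36, the fatty acid translocase, had signals of 8.79, 9.51, 8.52 and 7.91 in HS, against 7.65, 7.92, 10.11 and 8.13 in PF, and LPL, the lipase that frees fatty acids from lipoproteins, 7.14 ± 0.68 in HS, against 7.72 ± 1.47 in PF (SD, n = 4 each). PDK4, the kinase that shuts pyruvate out of oxidation, gave 6.35, 7.22, 8.55 and 6.55 in HS, against 9.72, 5.49, 9.95 and 7.84 in PF. Without PF replicate 2, LPL and PDK4 met the thresholds, both lower in HS. Like ACSL5, LPL and PDK4 had their highest HS signal in replicate 3 (7.92 for LPL) and their lowest PF signal in replicate 2 (5.67 for LPL). The same held for the marker means of endothelial cells (7.86 and 5.51), fibroblasts and smooth muscle (8.92 and 7.53), myeloid cells (6.88 and 5.86) and lymphocytes (5.11 and 4.81). CD36 was highest in PF replicate 3, the array with the highest myeloid and lymphocyte means. The part of these cells in the values was not tested.

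ACAA2, a thiolase of mitochondrial oxidation, averaged 9.74 ± 0.10 in HS and 9.40 ± 0.25 in PF (log2 fold change 0.34, limma adjusted p = 0.683). PNPLA2, the adipose triglyceride lipase, averaged 8.19 ± 0.09 in HS and 7.62 ± 0.57 in PF. PNPLA2 met the thresholds, higher in HS, without PF replicate 2, without PF replicate 4 and with array medians subtracted. As for SLC27A1, SLC27A2 and CPT1B, PF replicates 1 and 3 had the lowest signals of PNPLA2 (7.39 and 6.93).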
